A study of Mus musculus with 16 samples.

Results

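Cytotoxic T lymphocytes and natural killer (NK) cells kill their targets with a shared set of gene products, and 10 genes that encode members of that set were followed here through pancreatic tumours treated with ADH-503: Gzma, Gzmb, Gzmk, Prf1, Nkg7, Fasl, Ifng, Klrk1, Tbx21 and Eomes. They were taken by their symbols, whatever their values, from the gene annotation of the arrays, and they account for 10 of the 37008 gene names and 13 of the 56605 probes. All 10 passed the filter on dim probes, which asked for a signal well above background on 5 arrays or more, and so entered the test with 30582 names in all.

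The killing programme works in a known order. The transcription factors T-bet (Tbx21) and eomesodermin (Eomes) drive the effector state, activating receptors such as NKG2D (Klrk1) recognise stressed or transformed cells, and granules are released in which perforin (Prf1) opens the way for serine proteases, the granzymes. Fas ligand (Fasl) kills through a receptor on the target cell, and interferon gamma (Ifng) is the cytokine through which these lymphocytes act on macrophages, tumour cells and antigen presentation. In tumours of the pancreas such cells are known to be scarce and held back by myeloid cells.

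The pancreatic tumours had been grown orthotopically in female mice of the C57BL/6 strain. Total RNA of each sample was amplified as cDNA, labelled with Cy5 and hybridised to a 1-colour Agilent mouse array. There were 5 samples labelled with ADH-503 treatment at 10 days, 5 with the same treatment at 48 h, and 6 labelled vehicle, whose time label reads control and gives no time, so that the vehicle tumours stand beside both time points. ADH-503 is a small-molecule agonist of CD11b, an integrin of myeloid cells, and the titles of the treated samples call the compound LA1. The labels do not say which tumour line was implanted, whether each sample came from its own mouse, or how old the vehicle tumours were. P-values therefore measure no more than sample-to-sample spread, which may be partly technical.

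Values below are log2 processed signal relative to the 75th percentile of the same array, called relative signal, so that 0 is the level of that percentile; they compare samples for 1 probe and not 1 probe with another. The arrays lay on 2 slides, each scanned in a session of its own. Slide 1 held 3 of the 10-day, 4 of the 48 h and 1 of the vehicle arrays, and slide 2 held 2, 1 and 5. Differences from vehicle are therefore also given with slide as a term in the model or within each slide. This holds for the brightest probe of each of the 10 genes, but not for second probes, other genes or list counts. Differences within slide 1 against vehicle rest on 1 vehicle array, and those within slide 2 for 48 h on 1 array. Between 74.9% and 81.2% of the probes of an array were well above background, and no spot was saturated. Vehicle replicate 2 and 48 h replicate 5 carry the same number in their titles, although the description of the vehicle sample gives another. Over all probes they correlated at r = 0.959, and 6 of all 120 array pairs had a lower r. Both were kept. In RNA of a whole tumour, fewer cells of a type and less of a transcript per cell cannot be told apart. All 16 T cell markers and 11 of the 14 NK cell markers examined were well above background on at least 12 arrays, as were all 13 acinar and all 11 ductal and tumour epithelial markers.

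None of the 10 effector genes passed the test between treated and vehicle tumours, or between the treatment times, at an adjusted p under 0.05 (limma, Benjamini-Hochberg over 30582 genes). Of all genes tested, 0% passed in each of the 3 comparisons, so a list below without a passing gene is like the rest. In limma 3.54% for 10 days against vehicle, 2.56% for 48 h against vehicle and 3.47% for 10 days against 48 h had an unadjusted p under 0.05. The smallest adjusted p among all genes was 0.76 for 10 days against vehicle, 1 (rounded) for 48 h against vehicle and 0.382 for 10 days against 48 h. At 10 days 4 effector genes lay above vehicle and 6 below, with a median difference of -0.17, while 48.0% of all genes lay above and their median was -0.01. At 48 h 3 lay above vehicle and 7 below, with a median of -0.11, beside 46.8% and -0.01 for all genes. Between the times, 6 were higher at 10 days than at 48 h and 4 lower, with a median of 0.07, beside 51.1% and 0.0048 for all genes. Both comparisons against vehicle use the same 6 vehicle arrays. The groups overlapped for all 10 genes in all 3 comparisons. Groups without overlap were rare over the array: in 10 days against vehicle, 0.118% of genes had every treated array above every vehicle array and 0.0948% the reverse. The same shares were 0.0719% and 0.0687% for 48 h against vehicle, and 0.363% and 0.141% for 10 days against 48 h.

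**Figure D1:**
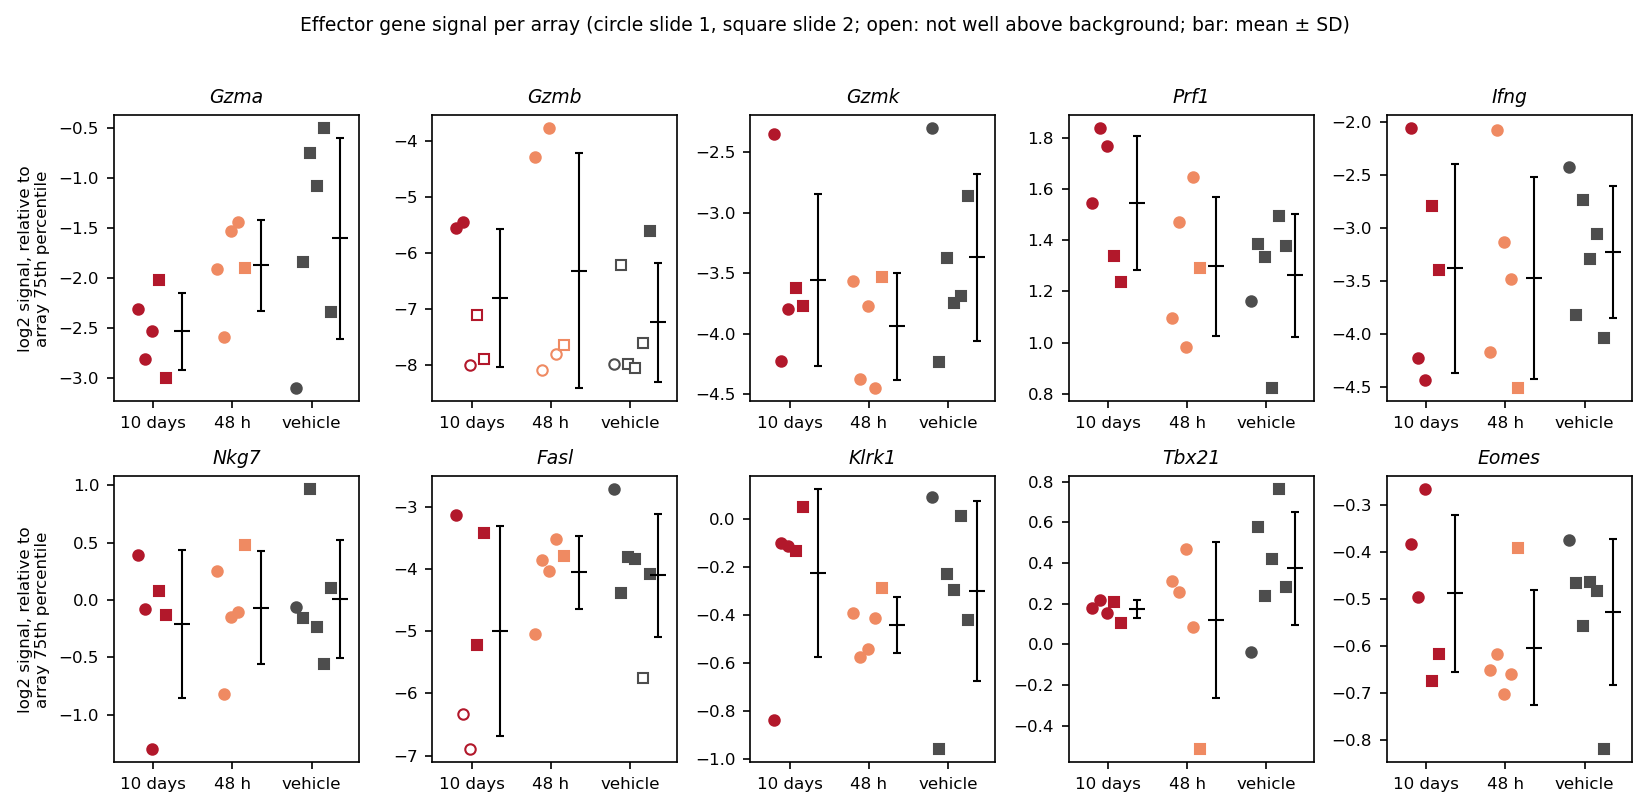
Relative signal of each effector gene on each array, with the 10-day, 48 h and vehicle groups side by side. Circles are arrays of slide 1 and squares arrays of slide 2, open symbols mark arrays where the probe was not well above background, and bars give the mean and SD of a group. The groups overlap in every panel.

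Granzyme A, a tryptase of cytotoxic granules, had the lowest unadjusted p of the 10 genes. Its probe (chr13:113884035-113884094, minus strand, mouse build mm9) was well above background on all 16 arrays. The relative signal of Gzma was -2.32, -2.81, -2.53, -2.03 and -3.00 on the 10-day arrays, -1.91, -2.59, -1.53, -1.44 and -1.90 on the 48 h arrays, and between -3.11 and -0.51 with a median of -1.46 on the 6 vehicle arrays. All 5 arrays at 10 days lay below the vehicle mean, but the lowest array of all was a vehicle array, the 1 on slide 1. The 10-day mean of -2.54 ± 0.39 (SD, n = 5) against the vehicle mean of -1.61 ± 1.01 (SD, n = 6) gave a log2 difference of -0.93 (SE 0.40; 1.91-fold lower), with an unadjusted p of 0.0357 and an adjusted p of 1 in limma, and an exact 2-sided permutation test of the same arrays gave 0.0909. The smallest p that test can give is 0.00216.

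At 48 h Gzma averaged -1.88 ± 0.45 (SD, n = 5), which was -0.27 (SE 0.40) from vehicle. The 10-day arrays all lay below the 48 h mean, with a log2 difference of -0.66 (SE 0.42) between the times. The exact 2-sided permutation test of that difference gave an unadjusted p of 0.0476, where 0.00794 is the smallest possible, and limma gave 0.138 unadjusted and 1 adjusted. With slide in the model the 10-day difference from vehicle was -0.70, with an unadjusted p of 0.123 in limma in place of 0.0357, and the 48 h difference was 0.07. Within slide 2 Gzma lay lower at 10 days than in vehicle by a log2 difference of -1.21, and within slide 1 the sign was the other way, at 0.55. The lower signal at 10 days than at 48 h had the same sign in both slides, -0.68 in slide 1 and -0.61 in slide 2. The value in slide 2 sets 2 arrays at 10 days against 1 at 48 h, replicate 5.

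T cell markers also lay mostly below vehicle at 10 days. Of the 16 T cell markers 14 lay below vehicle and 2 above, with a median difference of -0.14, and none passed the test. The mean of these markers ran from -0.87 to -0.25 over the 10-day arrays, from -0.63 to -0.25 at 48 h and from -0.56 to 0.04 in vehicle. Of the 12 NK cell markers tested, 5 lay above vehicle and 7 below at 10 days, with a median difference of -0.07. Lower values at 10 days were not particular to T cells. All 12 granulocyte markers lay below vehicle (median -0.52), as did 10 of 11 ductal and tumour epithelial markers (median -0.48). Of 12 macrophage markers 11 lay above vehicle (median 0.07). Over the 16 arrays Gzma had r = 0.567 with the T cell mean (permutation p = 0.0221, adjusted 0.196) and r = -0.01 with the NK cell mean (permutation p = 0.963, adjusted 0.963), as described with the other genes further on.

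Granzyme B, the granzyme that cleaves caspase substrates in target cells, was at the edge of detection. Its probe (chr14:56877916-56877975, minus strand) was well above background on 2 of 5 arrays at 10 days, 2 of 5 at 48 h and 1 of 6 in vehicle. The relative signal of Gzmb was -5.56, -5.45, -8.01, -7.11 and -7.90 at 10 days, -4.29, -8.10, -3.77, -7.80 and -7.64 at 48 h, and between -8.06 and -5.61 with a median of -7.80 in vehicle. In each treated group the 2 detected arrays, all of them on slide 1, stood above the other 3, none of which was well above background. With those treated arrays and 1 vehicle array, Gzmb just met the filter of 5 arrays. Its entry into the test therefore hung on the arrays where it was high.

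The 48 h mean of Gzmb lay above vehicle by 0.92 on the log2 scale (SE 0.85, 95% interval -0.89 to 2.74), and the 10-day mean by 0.44 (95% interval -1.38 to 2.26), both with an adjusted p of 1 in limma. Leaving out 1 array moved the 48 h difference to between 0.29 (without 48 h replicate 3) and 1.37 (without 48 h replicate 2). The 10-day difference moved to between 0.10 (without 10-day replicate 2) and 0.77 (without vehicle replicate 6). Within slide 2, which held no detected treated array, the signs were the other way, at -0.54 for 48 h and -0.41 for 10 days against vehicle, while slide 1 gave 1.99 and 1.64. With 11 of 16 arrays not well above background these are differences of measured signal rather than of a detected transcript. Mast cells and plasmacytoid dendritic cells can also carry Gzmb. At 48 h 6 of 11 mast cell markers lay above vehicle (median 0.06), as did 5 of 8 plasmacytoid dendritic cell markers (median 0.06). At 10 days 1 of the mast cell markers lay above vehicle and 10 below (median -0.47), and 4 of the plasmacytoid dendritic cell markers lay above and 4 below (median -0.03). No marker of either list passed the test, and their part in the Gzmb values was not tested.

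Granzyme K, a granzyme of memory-like CD8 T cells, was measured by probes at 2 places, and only 1 of them gave a signal well above background. Both places are on the minus strand of chromosome 13 in mm9. The sequences are shown because these probes, given the same gene symbol, differed in detection; the longest run of bases they share is 6, and of the brighter probe the first 30 bases are given.
Gzmk probe at chr13:113961816-113961875, well above background on 16 of 16 arrays: cgttcatcctaaataaaatgtggacgtctg
Gzmk probe at chr13:113962100-113962159, well above background on 0 of 16 arrays: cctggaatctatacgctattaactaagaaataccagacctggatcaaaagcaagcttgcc

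On the brighter probe the relative signal of Gzmk was -2.35, -4.23, -3.79, -3.62 and -3.77 at 10 days, -3.57, -4.37, -3.77, -4.45 and -3.53 at 48 h, and between -4.23 and -2.30 with a median of -3.53 in vehicle. The highest 2 arrays were a vehicle and a 10-day array of slide 1, and all 48 h arrays lay below the vehicle mean. That put 48 h at -0.57 (SE 0.36, 95% interval -1.34 to 0.20) from vehicle and 10 days at -0.19 (95% interval -0.96 to 0.59). With slide in the model the 48 h difference was -0.78 with an unadjusted p of 0.0886 in limma. It was -1.74 within slide 1 and 0.05 within slide 2. The 10-day difference from vehicle was -0.33 with slide in the model, -1.15 within slide 1 and -0.12 within slide 2. The array annotation assigns the brighter probe to an Ensembl transcript and the dim probe to a RefSeq transcript. The dim probe stayed between -8.13 and -6.57 throughout, and over the 16 arrays the pair correlated at r = 0.394. On the dim probe the difference from vehicle was 0.27 (SE 0.21) at 10 days and -0.05 (SE 0.21) at 48 h, in signal never well above background.

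Perforin, the pore-forming protein without which granzymes do not reach the target cell's interior, had the smallest SD in each group of the granule genes. Its probe (chr10:60766941-60767000, plus strand) gave Prf1 relative signals of 1.55, 1.84, 1.77, 1.34 and 1.24 at 10 days, 1.09, 1.47, 0.98, 1.65 and 1.29 at 48 h, and between 0.82 and 1.5 with a median of 1.36 in vehicle. Of the 5 arrays at 10 days, 4 lay above the vehicle mean, and the highest 3 lay above every vehicle array. The 10-day difference from vehicle was 0.28 (SE 0.16, 95% interval -0.06 to 0.62, 1.22-fold), with an unadjusted p of 0.0953 and an adjusted p of 1 in limma. It was 0.55 within slide 1 and 0.00 within slide 2. At 48 h the difference was 0.03 (95% interval -0.30 to 0.37).

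Nkg7, a granule membrane protein needed for efficient granule release, differed little between groups. Its probe (chr7:50693482-50693541, plus strand) gave relative signals of 0.40, -0.08, -1.30, 0.07 and -0.13 at 10 days, 0.25, -0.82, -0.15, -0.11 and 0.48 at 48 h, and between -0.56 and 0.96 with a median of -0.11 in vehicle. A single 10-day array was the lowest of the 16, and the difference from vehicle at 10 days was -0.22 (SE 0.32) with it and 0.06 without it. At 48 h the difference from vehicle was -0.08 (95% interval -0.75 to 0.60). With slide in the model it was -0.07 at 10 days and 0.14 at 48 h; within slide 1 it was -0.27 and -0.15, and within slide 2 -0.05 and 0.46.

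Other genes of the granule pathway did not pass the test either, like all genes tested. Of 4 tested granzymes outside the 10 (3 more were on the array but too dim), 1 lay above vehicle and 3 below at 10 days, and the counts at 48 h were the same. Gzmm, a granzyme of innate-like lymphocytes, had the largest difference between the times among them, 0.47 higher at 10 days than at 48 h (SE 0.25; unadjusted p of 0.0773 in limma). Of 13 tested genes for granule loading and release, 4 lay above vehicle and 9 below at 10 days (range -0.22 to 0.14), and 7 above and 6 below at 48 h (range -0.16 to 0.22). Stx11, a syntaxin required for granule fusion, was at -0.22 (SE 0.17) at 10 days. Srgn, the proteoglycan that holds granzymes in the granule, was at -0.10 (SE 0.11).

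**Figure D2:**
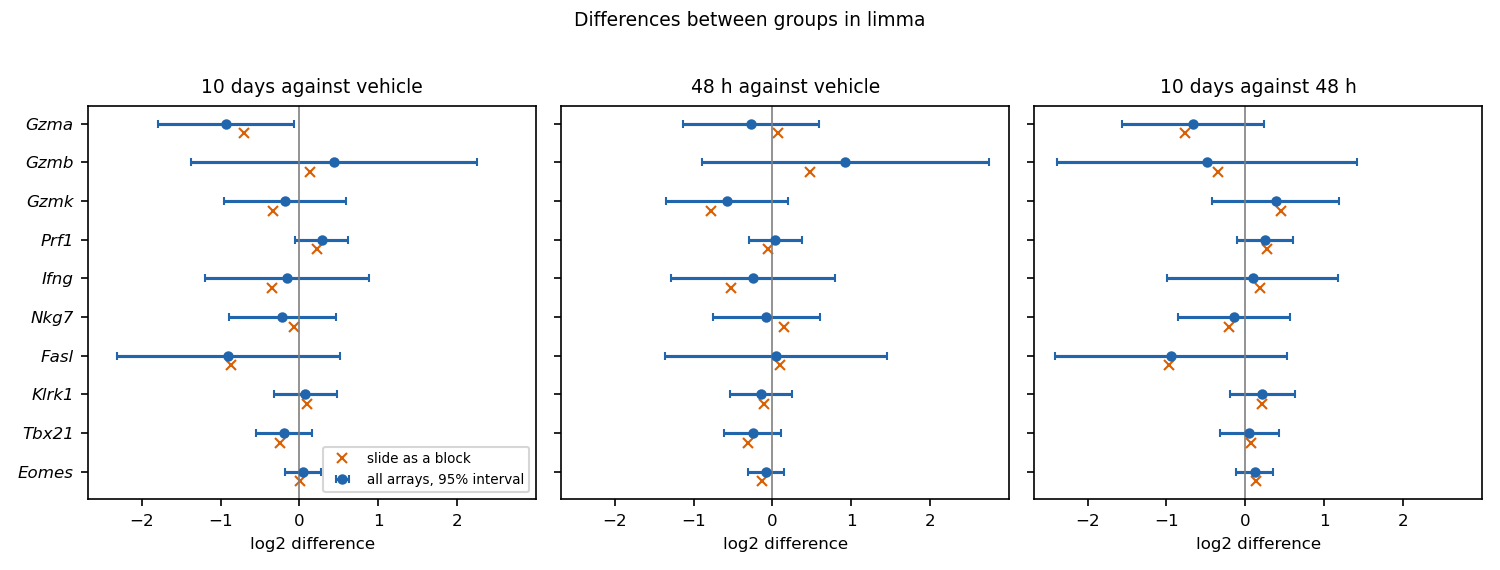
Log2 difference of each effector gene for 10 days against vehicle, 48 h against vehicle and 10 days against 48 h. Circles and bars give the limma estimate with its 95% interval, and crosses the estimate with slide in the model. Only the interval of Gzma for 10 days against vehicle does not cross 0, and the intervals of Gzmb and Fasl are the widest.

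Fas ligand, the death ligand of activated T and NK cells, spread more at 10 days than in the other groups. The probe of Fasl (chr1:163711056-163711115, minus strand) was well above background on 3 of 5 arrays at 10 days, 5 of 5 at 48 h and 5 of 6 in vehicle. Its relative signal was -3.13, -6.33, -6.90, -5.22 and -3.42 at 10 days, -5.05, -3.86, -4.04, -3.53 and -3.80 at 48 h, and between -5.75 and -2.72 with a median of -3.96 in vehicle. The lowest 2 arrays at 10 days were below every array of the other groups and were not well above background, while the highest 2 were above the whole 48 h range. The SD was 1.69 at 10 days, 0.59 at 48 h and 0.99 in vehicle. The difference was -0.90 for 10 days against vehicle (SE 0.66, 95% interval -2.31 to 0.51), 0.05 for 48 h against vehicle (95% interval -1.36 to 1.45) and -0.95 for 10 days against 48 h (SE 0.69), each with an adjusted p of 1 in limma. Without 10-day replicate 3 the 10-day difference was -0.43 from vehicle and -0.47 from 48 h, and without 10-day replicate 1 it was -1.37 from vehicle and -1.41 from 48 h. The 10-day difference from vehicle was -2.73 within slide 1 and 0.06 within slide 2.

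Of 12 other genes for death ligands, their receptors and the proteins downstream, 6 lay above vehicle and 6 below at 10 days, 7 above and 5 below at 48 h, and none passed the test. Tnfrsf10b, a receptor for the death ligand TRAIL, was at -0.35 (SE 0.39) at 10 days. Tnfsf10, which encodes TRAIL, was at 0.12 (SE 0.14). Tnf was at -0.19 (SE 0.18) at 48 h.

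Interferon gamma varied more among the samples of each group than the group means differed. The probe of Ifng (chr10:117882841-117882900, plus strand) gave relative signals of -2.06, -4.23, -4.44, -2.79 and -3.40 at 10 days, -4.17, -2.07, -3.13, -3.48 and -4.52 at 48 h, and between -4.04 and -2.42 with a median of -3.18 in vehicle. Each treated group held the extremes: the highest array of either was above, and its lowest below, the whole vehicle range. The SD was 0.99 at 10 days, 0.96 at 48 h and 0.62 in vehicle. The difference from vehicle was -0.15 at 10 days (95% interval -1.19 to 0.88) and -0.25 at 48 h (95% interval -1.28 to 0.79). Modelled with slide it was -0.35 at 10 days and -0.53 at 48 h. Within slide 1 it was -1.15 at 10 days and -0.79 at 48 h, and within slide 2 0.30 and -1.13, each slide resting on few arrays.

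Of the 16 genes for inducers and receptors of interferon gamma, 5 lay above vehicle and 11 below at 10 days, and 4 above and 12 below at 48 h, with none passing the test. The lowest unadjusted p in these lists belonged to Il12b, which encodes the subunit shared by interleukins 12 and 23 and is made by myeloid cells. Il12b averaged -3.03 at 10 days against -2.20 in vehicle, a log2 difference of -0.83 (SE 0.18; unadjusted p of 0.000371 and adjusted p of 1 in limma). It was also lower at 10 days than at 48 h, by -0.62 (SE 0.19). Il2rb, the receptor chain for interleukins 2 and 15, was at -0.37 (SE 0.18) at 10 days. Il12rb2, a chain of the interleukin 12 receptor, was at -0.32 (SE 0.19) at 10 days and -0.34 (SE 0.19) at 48 h.

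Klrk1 encodes NKG2D, an activating receptor of NK cells and CD8 T cells. It had 2 probes that overlap on chromosome 6 in mm9, minus strand, and both were well above background on all 16 arrays. The stretch of 20 bases that they share is in capitals, and of the second probe the first 30 bases are given; the first probe spans 290 bases of the genome, so its bases are not contiguous there.
Klrk1 first probe, chr6:129562482-129562771: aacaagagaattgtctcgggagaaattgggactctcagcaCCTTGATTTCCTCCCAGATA
Klrk1 second probe, chr6:129562442-129562501: CCTTGATTTCCTCCCAGATAtcccctactc

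On the first probe, the brighter, the relative signal of Klrk1 was -0.84, -0.10, -0.11, -0.13 and 0.05 at 10 days, -0.39, -0.58, -0.54, -0.41 and -0.29 at 48 h, and between -0.96 and 0.09 with a median of -0.26 in vehicle. Of the 10-day arrays 4 lay above all 48 h arrays and the other lay below them all. The difference was 0.07 for 10 days against vehicle (95% interval -0.32 to 0.47), -0.14 for 48 h against vehicle (95% interval -0.54 to 0.25) and 0.22 for 10 days against 48 h (SE 0.19). A slide term changed them to 0.09, -0.11 and 0.21. The arrays of slide 1 alone gave -0.44, -0.57 and 0.13, those of slide 2 alone 0.34, 0.09 and 0.25. On the second probe, over all arrays, these differences were -0.14 (SE 0.29), -0.21 (SE 0.29) and 0.07 (SE 0.30), so the sign for 10 days against vehicle depended on the probe. The probes correlated at r = 0.632 over the 16 arrays.

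Of 10 genes for NKG2D ligands and adaptors, 6 lay above vehicle and 4 below at each time, and none passed the test. Hcst, the adaptor through which NKG2D signals, was at 0.24 (SE 0.14) at 48 h. Among the ligands, H60c was at 0.47 (SE 0.43) and Raet1c at -0.55 (SE 0.47) at 10 days. The RAET1 genes are near-identical to one another, and signal from 1 of them may be shared with another.

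T-bet, the transcription factor that directs interferon gamma and granzyme expression, gave the narrowest group of all. The probe of Tbx21 (chr11:96959417-96959476, minus strand) had relative signals of 0.18, 0.22, 0.16, 0.21 and 0.11 at 10 days, 0.31, 0.26, 0.47, 0.08 and -0.52 at 48 h, and between -0.04 and 0.76 with a median of 0.35 in vehicle. All 5 arrays at 10 days were below the vehicle mean and within the vehicle range. Their SD was 0.04, against 0.38 at 48 h and 0.28 in vehicle. The difference from vehicle was -0.20 at 10 days (95% interval -0.56 to 0.16) and -0.25 at 48 h (95% interval -0.61 to 0.10). At 48 h a single array, replicate 5 on slide 2, was the lowest of all 16, and without it the 48 h difference was -0.09. With slide in the model the difference from vehicle was -0.24 at 10 days and -0.31 at 48 h. Within slide 1 it was 0.22 at 10 days and 0.32 at 48 h, and within slide 2 -0.30 and -0.97.

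Eomesodermin, which acts beside T-bet and marks memory-like CD8 T cells and NK cells, was measured by probes at 2 places on the plus strand of chromosome 9 in mm9. They are shown because they gave different pictures: they share a run of 5 bases at most, and the first spans 662 bases of the genome.
Eomes first probe, chr9:118390460-118391121: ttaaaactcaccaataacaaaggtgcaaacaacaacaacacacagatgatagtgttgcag
Eomes second probe, chr9:118394425-118394484: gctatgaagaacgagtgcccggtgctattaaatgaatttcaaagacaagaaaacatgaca

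On the first probe, the brighter, the relative signal of Eomes was -0.38, -0.50, -0.27, -0.67 and -0.62 at 10 days, -0.65, -0.62, -0.70, -0.66 and -0.39 at 48 h, and between -0.82 and -0.38 with a median of -0.47 in vehicle. The difference from vehicle was 0.04 at 10 days (95% interval -0.19 to 0.27) and -0.08 at 48 h (95% interval -0.30 to 0.15), the tightest intervals among the 10 genes. The slide term changed it to 0.00087 at 10 days and -0.13 at 48 h; within slide 1 it was -0.007 and -0.28, and within slide 2 -0.09 and 0.17. On the second probe the relative signal of Eomes was -1.29, -2.98, -1.75, -2.48 and -2.76 at 10 days, -2.62, -1.90, -2.06, -2.63 and -3.41 at 48 h, and between -2.36 and -1.55 with a median of -1.98 in vehicle. That probe lay below vehicle at both times, by -0.28 (SE 0.32) at 10 days and -0.55 (SE 0.32; unadjusted p of 0.102 in limma) at 48 h. The pair correlated at r = 0.310 over the 16 arrays, 0.557 within slide 1 and -0.06 within slide 2.

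Of 11 other lymphocyte transcription factors tested, 3 lay above vehicle and 8 below at 10 days, and 5 above and 6 below at 48 h. Bhlhe40, a factor that promotes cytokine production in T cells and is also expressed by macrophages, was at -0.28 (SE 0.13) at 10 days. Tox, a factor of chronically stimulated CD8 T cells, was at -0.37 (SE 0.23) at 48 h. Of 13 surface and chemokine genes of effector lymphocytes, 6 lay above vehicle and 7 below at each time. Klrg1, an inhibitory receptor of terminal effector cells, was at -0.59 (SE 0.23; unadjusted p of 0.0219 in limma) at 10 days. Ccl4, a chemokine that macrophages make too, was at -0.40 (SE 0.19; unadjusted p of 0.0497 in limma). Xcl1, a chemokine that attracts cross-presenting dendritic cells, was at -0.99 (SE 0.54). No gene of either list passed the test.

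From sample to sample the brightest probes of the 10 genes showed little correlation with one another. Of their 45 pairs, 27 correlated below 0 over the 16 arrays, the median r was -0.108, and 1 pair exceeded 0.5. That pair by r was Ifng and Fasl, with r = 0.521 (permutation p = 0.039, adjusted over the 45 pairs 0.790) and rho = 0.444 (permutation p = 0.0872). Without the 2 arrays farthest from the median of Ifng, r was 0.458. In slide 1 r was 0.848, but the relation did not hold in slide 2, where r was -0.379. By rank the strongest pair was Gzmk and Nkg7, with rho = 0.688 (permutation p = 0.00424, adjusted over the 45 pairs 0.191) and r = 0.399 (permutation p = 0.126, adjusted 0.810). The r of that pair was 0.422 without the 2 arrays farthest in Gzmk, 0.441 in slide 1 and 0.413 in slide 2. Gzmk stands here for its brighter probe, and its other probe was well above background on 0 of 16 arrays. No pair passed the adjusted threshold, and the lowest r was that of Prf1 and Fasl, -0.487 (permutation p = 0.0572, adjusted 0.790; rho = -0.347, permutation p = 0.19), which was -0.361 without the 2 arrays farthest in Prf1. Probes of the same gene did not always follow each other either, with r = 0.310 for Eomes, 0.394 for Gzmk and 0.632 for Klrk1. Gzmb was well above background on only 5 of the 16 arrays. How far probe noise lowers the r between genes was not tested.

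Some other lists measured on the same arrays varied together far more. The median r over pairs was 0.933 for acinar markers, 0.814 for B cell markers and 0.733 for erythroid markers. It was 0.194 for T cell markers and -0.0042 for NK cell markers, against -0.10 for the 9 effector genes well above background on at least 12 arrays. These medians describe the 16 arrays, whose slides and scaling all genes share.

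**Figure D3:**
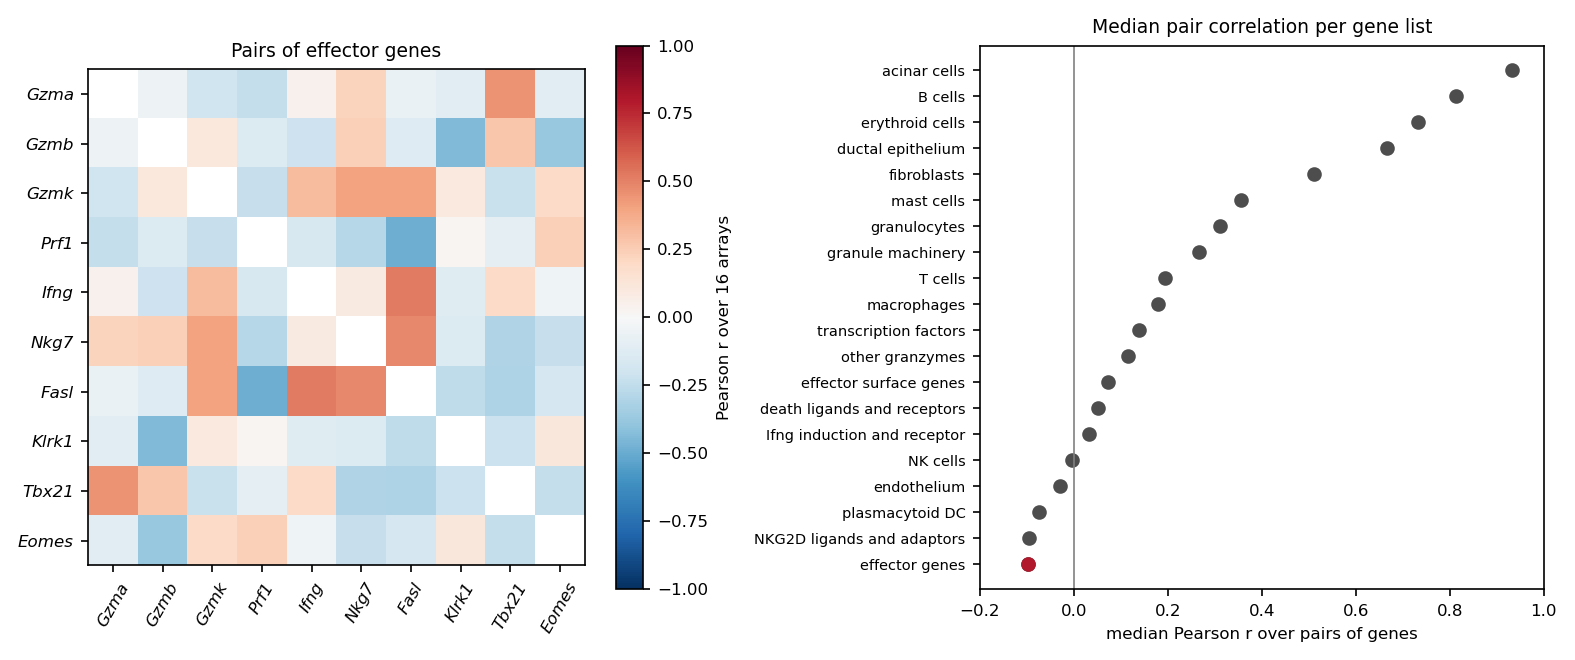
Left, Pearson r over the 16 arrays for each pair of effector genes, as a colour scale from -1 to 1. Right, the median r over all pairs of genes within each list, with the effector genes in red; acinar markers are at 0.933 and the effector genes at -0.10.

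Each gene was also set against the mean of the T cell markers and the mean of the NK cell markers over the 16 arrays, 20 relations in all, and none passed after adjustment over the 20 (lowest adjusted permutation p 0.196 for r and 0.163 for rho). With the T cell mean, Nkg7 had r = 0.599 (permutation p = 0.0153; rho = 0.335, permutation p = 0.204), Gzma r = 0.567 (permutation p = 0.0221; rho = 0.647, permutation p = 0.00813), and Fasl r = 0.541 (permutation p = 0.0295; rho = 0.462, permutation p = 0.0747). All 3 had the adjusted p of 0.196. Without the 2 arrays farthest from the median of the marker mean, r was 0.587 for Nkg7, 0.522 for Gzma and 0.585 for Fasl. Within slide 1 it was 0.683, 0.686 and 0.657 in the same order of genes, and within slide 2 0.5, 0.482 and 0.440. Prf1 and Klrk1 ran the other way against the T cell mean, at -0.388 and -0.287 (permutation p = 0.137 and 0.282; rho = -0.347 and -0.321). With the NK cell mean, r ranged from -0.401 for Klrk1 to 0.360 for Gzmb.

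**Figure D4:**
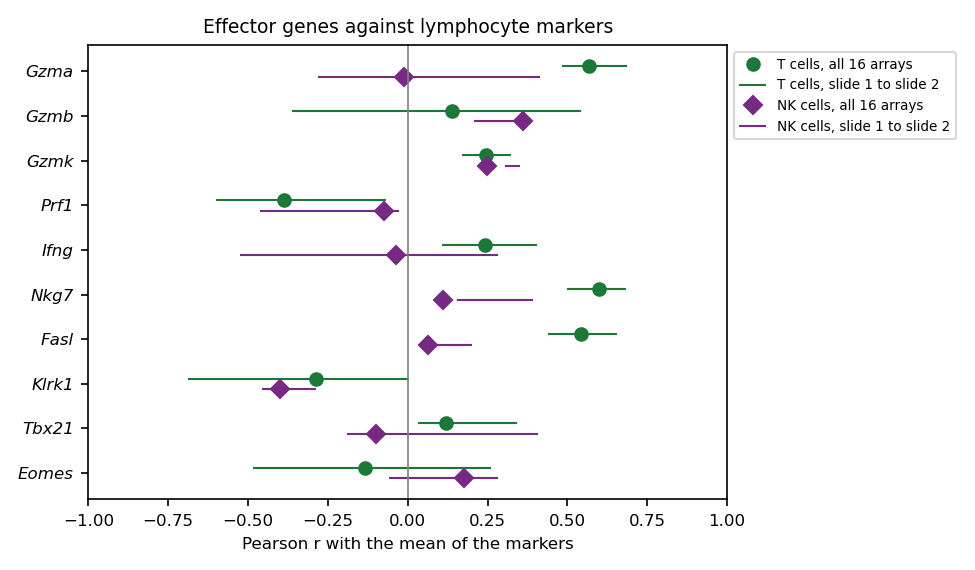
Pearson r of each effector gene with the mean of the T cell markers (circles) and of the NK cell markers (diamonds) over the 16 arrays, with lines joining the values within slide 1 and within slide 2. Nkg7, Gzma and Fasl have the highest values with T cell markers, 0.599, 0.567 and 0.541.

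For each effector gene well above background on at least 12 arrays, the 3 other genes with the highest r over the 16 arrays were taken from 19562 candidates; having been picked for their r, they carry no p. For Gzma these were Dgkb, Nat8 and 1700041M19Rik (r = 0.830 to 0.854), for Prf1 Gm35113, Gsg1 and Myo18b (r = 0.820 to 0.843), and for Fasl Carns1, Kcng4 and Trub1 (r = 0.740 to 0.839). For Gzmk they were Scyl2, Efcab8 and Rnaseh1 (r = 0.692 to 0.735), for Ifng Tepp, Cldn34b1 and Flt4 (r = 0.732 to 0.771), and for Nkg7 Rsl1, Cnep1r1 and Chsy1 (r = 0.756 to 0.773). For Tbx21 they were Vmn2r62, Gm34182 and Gng4 (r = 0.828 to 0.856), and for Eomes Gm5092, Gm36010 and Csmd3 (r = 0.766 to 0.844).

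Klrk1 had the highest r of all 9. Its 3 genes were Ifit2, which encodes an interferon-induced RNA-binding protein, with r = 0.869 (rho = 0.768), Adar, which encodes an enzyme that edits double-stranded RNA, with r = 0.866 (rho = 0.829), and Eif2ak2, which encodes a kinase that double-stranded RNA activates, with r = 0.822 (rho = 0.744). The values of Ifit2 were -3.80, -2.23, -2.79, -2.10 and -2.50 at 10 days, -3.10, -3.57, -2.90, -2.95 and -2.95 at 48 h, and between -3.87 and -2.35 in vehicle. The 2 arrays lowest in Klrk1, 10-day replicate 1 and vehicle replicate 2, were also the lowest in Ifit2, Adar and Eif2ak2. Without the 2 arrays farthest from the median of each such gene, r was 0.719 for Ifit2, 0.757 for Adar and 0.731 for Eif2ak2, and with the group means removed it was 0.856, 0.906 and 0.841 in that order. In slide 1 it was 0.875, 0.888 and 0.784, and in slide 2 0.867, 0.864 and 0.851. The second Klrk1 probe, which shares 20 bases with the first, gave less: 0.434 for Ifit2, 0.438 for Adar and 0.479 for Eif2ak2. Without the 2 farthest arrays those values were 0.203, 0.116 and 0.211. In slide 1 they were 0.735, 0.564 and 0.544, and in slide 2 0.183, 0.323 and 0.413. The 3 genes were picked by their r with the first probe on these same arrays. None of these values therefore tests the relation, and the contrast of the probes favours the first. None of the 3 passed the test in any comparison, the largest difference being that of Ifit2 for 10 days against 48 h, 0.41 (SE 0.32; adjusted p of 1 in limma).

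**Figure D5:**
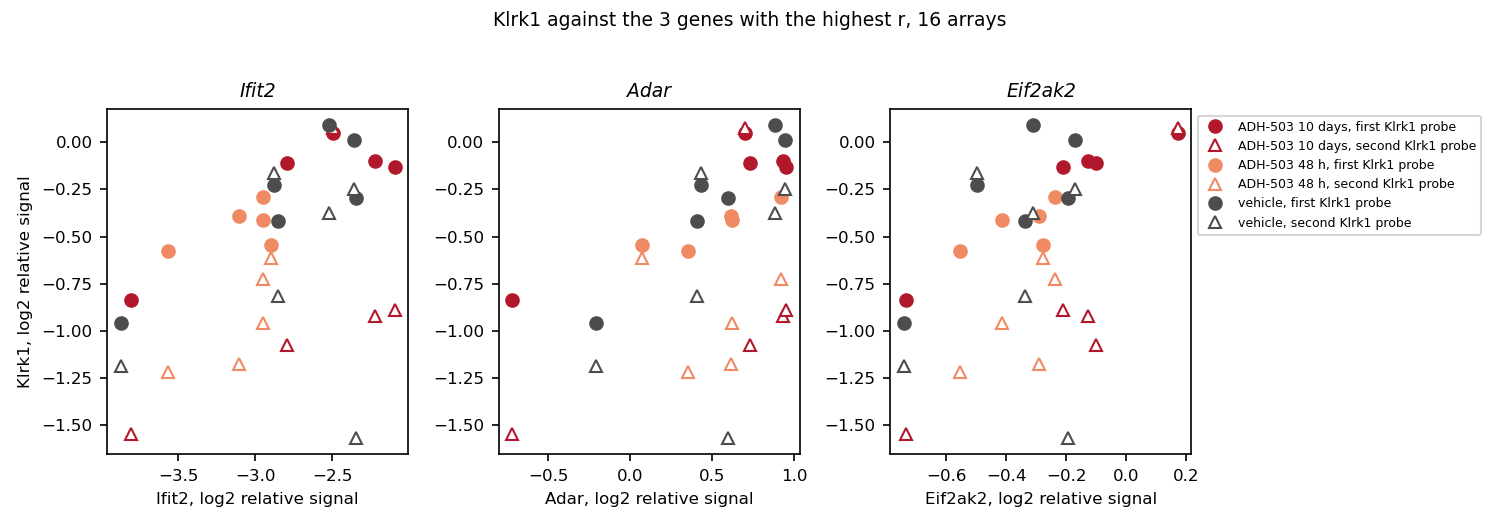
Relative signal of Klrk1 against that of Ifit2, Adar and Eif2ak2 on the 16 arrays. Filled circles are the first Klrk1 probe and open triangles the second, coloured by group. The first probe, by which the genes were picked, had r of 0.869, 0.866 and 0.822, and the second 0.434, 0.438 and 0.479.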

How the data were processed

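RNA of 16 tumour samples was measured on 1-colour arrays. The submitters' processing notes name Agilent Feature Extraction 11.5.1.1 as the software that read the images. The deposited processed signal is a linear intensity from which background was already subtracted, per the file headers, which place probes on mm9. The authors also deposited log2 values, quantile-normalised as their sorted columns show (differing by at most 0.0043); each correlated with its array at 0.998 or more, and they served as an alternative.

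From the scanner intensities, log2 processed signal was taken per spot, without control spots (3671) and outlier spots (73 to 151 per array); spots of a probe were averaged and scaled by subtracting the 75th percentile of that array, taken over its probes. That percentile ran from 4953 to 6736; the number of arrays limits the precision. Names came from RefSeq on GRCm38.p6 (32994 probes by accession, 10744 by symbol or synonym; 12867 kept the name in the files). Each gene was represented by its brightest probe, and 30582 genes well above background on at least 5 arrays were tested. limma 3.58.1 in R 4.3.3 fitted the 3 groups in 1 model with robust eBayes, 2-sided, with Benjamini-Hochberg adjustment over all genes and a threshold of 0.05. The script was tested on simulated data. Correlations used 100000 permutations. Alternatives were the deposited table, normexp with quantile normalisation, other scalings, filters, probe rules and eBayes settings, slide as a block, each slide alone, and arrays left out.

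The genes and lists were chosen with earlier results of these data known, and lists are described by counts. Every member and probe was named, and of each other pathway list up to 3 genes per comparison with the smallest unadjusted p. Of the 85 genes in the 7 other pathway lists, those on the array and detected were tested. Slides are known from the headers; replicate numbers only name arrays.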

Additional observations from a re-analysis of the deposited data

Results flagged for a closer look

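In 3 of 39 sets, each the values of a probe in a group, 1 array stood apart from the rest by Dixon's criterion; chance sets an array apart in about 1 in 20 sets. The Klrk1 first probe was at -0.838 on 10-day replicate 1, below the other 4 arrays at 10 days, which ran from -0.133 to 0.051. The Eomes first probe was at -0.392 on 48 h replicate 5, above the other 4 arrays at 48 h, which ran from -0.701 to -0.618; that array was the only 48 h array on slide 2 and shares its title number with a vehicle array. The dim Gzmk probe was at -6.57 on 10-day replicate 1, above the other 4 arrays at 10 days (-8.01 to -7.79), and it was not well above background there either.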

How the results depend on the processing

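The count of effector genes passing the test was 0 under every setting run. Leaving out 1 array at a time kept the sign of the log2 difference in 453 cases and turned it in 27. An array of the group outside a comparison cannot change its difference, so part of the 453 was fixed in advance. Other settings also covered the correlations with marker means. They gave the same sign and side of the threshold in 450 cases and turned the sign in 35. Part of the 450 could not turn sign, because filters, eBayes settings and a fit of only the compared groups leave the difference itself unchanged. The exact permutation tests use that same difference, so their sign was also fixed. They moved the unadjusted p of Gzma over 0.05 for 10 days against vehicle (0.0909) and under it for 10 days against 48 h (0.0476). With slide as a block the unadjusted p of Gzma for 10 days against vehicle was also over 0.05, at 0.123. Over all genes, the count passing, 0 as reported, was 1 for 48 h against vehicle and 1 for 10 days against vehicle without a filter on dim probes. Within slide 1 it was 3 for 48 h against vehicle. Within slide 2 it was 3 for 48 h against vehicle, 12 for 10 days against vehicle and 1 for 10 days against 48 h. With only the compared groups in the fit it was 3 for 10 days against 48 h, and leaving out 1 array it ran from 0 to 1 in each comparison (1 without vehicle replicate 1, vehicle replicate 5 or 10-day replicate 4). The cause of these shifts was not tested. Signs turned as follows, with the log2 difference given for each. With slide as a block, 48 h against vehicle was 0.070 for Gzma, -0.060 for Prf1 and 0.14 for Nkg7. Within slide 1, 48 h against vehicle was 1.24 for Gzma, -1.40 for Fasl and 0.32 for Tbx21, 10 days against vehicle was 0.55 for Gzma, -0.44 for Klrk1, 0.22 for Tbx21 and -0.0070 for Eomes, and 10 days against 48 h was -0.36 for Ifng and -0.10 for Tbx21. Within slide 2, 48 h against vehicle was -0.54 for Gzmb, 0.050 for Gzmk, 0.46 for Nkg7, 0.089 for Klrk1 and 0.17 for Eomes. In the same slide, 10 days against vehicle was -0.41 for Gzmb, 0.30 for Ifng, 0.058 for Fasl and -0.088 for Eomes, and 10 days against 48 h was 0.13 for Gzmb, -0.17 for Gzmk, -0.0070 for Prf1 and -0.25 for Eomes. Under the mean of all probes, 10 days against vehicle was 0.042 for Gzmk, -0.035 for Klrk1 and -0.12 for Eomes. Under normexp with quantile normalisation it was -0.15 for Gzmb, and r with the NK cell mean was 0.123 for Ifng and -0.134 for Eomes. Without both arrays that share a title number, 48 h against vehicle was -0.077 for Fasl, 10 days against vehicle was -0.058 for Klrk1, and 10 days against 48 h was -0.17 for Ifng and -0.11 for Tbx21.

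Leaving out 1 array, 48 h against vehicle ran from -0.053 to 0.11 for Prf1, -0.60 to 0.014 for Ifng, -0.21 to 0.11 for Nkg7 and -0.29 to 0.32 for Fasl. For 10 days against vehicle the ranges were -0.49 to 0.027 for Gzmk, -0.48 to 0.11 for Ifng, -0.37 to 0.056 for Nkg7, -0.058 to 0.23 for Klrk1 and -0.018 to 0.087 for Eomes. For 10 days against 48 h they were -0.93 to 0.15 for Gzmb, -0.24 to 0.44 for Ifng, -0.33 to 0.13 for Nkg7 and -0.11 to 0.14 for Tbx21. The other differences kept their sign when any 1 array was left out, but several moved by over 1.5 times. For 48 h against vehicle these ran from -0.57 to -0.05 for Gzma, 0.29 to 1.37 for Gzmb, -0.75 to -0.36 for Gzmk, -0.27 to -0.06 for Klrk1, -0.34 to -0.09 for Tbx21 and -0.13 to -0.05 for Eomes. For 10 days against vehicle they ran from 0.10 to 0.77 for Gzmb, -1.37 to -0.43 for Fasl and -0.28 to -0.12 for Tbx21. For 10 days against 48 h they ran from 0.08 to 0.55 for Gzmk, -1.41 to -0.47 for Fasl, 0.15 to 0.37 for Klrk1 and 0.06 to 0.17 for Eomes. No paired analysis was possible because the labels give no replicate numbers, and 1 title number shared by 2 samples of different groups is too few for pairing.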
